A study of Mus musculus with 13 samples.

Results

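The epithelial miRNAs of the miR-200 family, with miR-203 and miR-205, were followed in small RNA libraries of mouse brain. They comprise 7 hairpins, mmu-mir-200a, mmu-mir-200b, mmu-mir-200c, mmu-mir-141, mmu-mir-429, mmu-mir-203 and mmu-mir-205, of 903 with counts in any library. The members were picked by hairpin name, with no threshold on a value, but they were put together with the CPM (counts scaled to a common library size) of the 4 groups in view. Their levels and the differences between groups are therefore given as a description, and the numbers of members called in tests on the whole table are printed beside the share or number of all pairs, with nothing read from them. TgR mice carry a transgene for human AChE-R, the readthrough variant of acetylcholinesterase, and FVB/N mice are the wild-type controls of the same strain. Libraries came from the prefrontal cortex (PFC) of 3 FVB/N and 4 TgR mice and from the hippocampus of 3 FVB/N and 3 TgR mice, each from 300 ng of RNA, with RNA integrity values between 8.6 and 9.3 over the study. The transgene is driven by a cytomegalovirus promoter-enhancer, and the authors state that expression from it depends on neuronal activity. The age and sex of the sequenced mice are not given in the sources used here, nor is it stated whether a PFC and a hippocampus came from the same mouse. Total counts ranged from 8769851 (TgR PFC replicate 2) to 18385985 (TgR hippocampus replicate 1), so that 3 counts, the smallest signal told from 0, corresponded to 0.342 and 0.163 CPM in these libraries.

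The miR-200 family keeps epithelial cells epithelial. Its members repress the transcription factors ZEB1 and ZEB2, which in turn repress the genes of the family, so that a cell tends to hold either the miRNAs or the factors. miR-203 restrains the stem cell factor p63 in stratified skin, where it marks differentiating layers, and miR-205 is abundant in the basal layer of the same epithelia. In brain, the family is best known from the olfactory epithelium and bulb and from neural progenitors, and mature neurons hold little of it.

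A miRNA recognises its targets mainly through the seed, bases 2 to 8 from the 5′ end. The main arms are shown because their seeds separate the family into groups, with the seed in capitals and the sequence from RefSeq (GRCm38.p6).
mmu-miR-200a-3p: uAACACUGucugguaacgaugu
mmu-miR-141-3p: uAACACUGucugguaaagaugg
mmu-miR-200b-3p: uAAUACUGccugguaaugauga
mmu-miR-200c-3p: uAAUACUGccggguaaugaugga
mmu-miR-429-3p: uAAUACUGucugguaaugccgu
mmu-miR-203-3p: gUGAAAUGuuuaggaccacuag
mmu-miR-205-5p: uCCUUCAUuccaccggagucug
mmu-miR-200a-5p: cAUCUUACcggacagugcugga
Both miR-200 seed groups are spread over the same 2 clusters, and they differ from each other by C4U, counted from the 5′ end of miR-200a-3p. Among 1679 mature mouse entries, the seed AACACUG occurred in miR-200a-3p and miR-141-3p, and the seed AAUACUG in miR-200b-3p, miR-200c-3p and miR-429-3p, while those of miR-203-3p and miR-205-5p occurred in 1 entry each. Outside the seed the partners are nearly alike. From miR-200a-3p to miR-141-3p the changes are C17A and U22G, and from miR-200b-3p to miR-200c-3p they are U11G and A22G, with 1 base more at the end of miR-200c-3p. The last sequence, miR-200a-5p, is the minor arm of its hairpin and is shown because its FVB/N hippocampus levels stood apart from those of the other groups.

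The hairpins lie at 4 places in GRCm38.p6. Mir429 (156053905 to 156053987), Mir200a (156054896 to 156054985) and Mir200b (156055681 to 156055750) span 1846 bases on the minus strand of chromosome 4, in an intron of Ttll10, which codes for a tubulin ligase-like protein. The non-coding transcript Gm13648 covers the same stretch and has an exon over Mir429. Mir141 (124717914 to 124717985) and Mir200c (124718322 to 124718390) span 477 bases on the minus strand of chromosome 6, in an intron of the antisense transcript Gm15884, and Mir141 also overlaps an exon of Gm29008, a transcript still to be experimentally checked. Mir203 (chromosome 12, 112130880 to 112130955, plus strand) overlaps no other annotated gene, and the nearest protein-coding gene, Aspg, lies 3321 bases away. Mir205 (chromosome 1, 193507463 to 193507530, minus strand) lies in an exon of the long non-coding RNA 4631405K08Rik.

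Of the 14 arms that RefSeq gives for these hairpins, 12 were listed and 9 of them had counts in all 13 libraries. miR-141-5p and miR-429-5p were listed in no library. miR-200c-5p and miR-205-3p had 1 count each in a single library (FVB/N hippocampus replicate 2 and TgR PFC replicate 3), and miR-200b-5p had 51 counts over 10 libraries. By mean CPM over the 13 libraries, scaled by TMM factors as all levels here, miR-203-3p was the highest member at 103 CPM, the 214th of 1514 pairs of hairpin and mature miRNA. It was followed by miR-200a-3p at 62.0 CPM, miR-200b-3p at 33.9 CPM, miR-429-3p at 12.7 CPM and miR-200c-3p at 4.15 CPM. miR-200a-5p, miR-141-3p, miR-203-5p and miR-205-5p averaged between 0.789 and 1.26 CPM, near the floor of 3 counts in several libraries. Levels of different miRNAs also carry the ligation preferences of the library kit, so this order is one of counts. It also turned by group, as miR-200a-3p exceeded miR-203-3p in the FVB/N hippocampus on average, though not in replicate 1, and miR-200c-3p slightly exceeded miR-429-3p on average in the PFC of both genotypes.

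The members of the chromosome 4 cluster varied widely and were highest in 2 FVB/N hippocampi. miR-200a-3p shares its seed with miR-141-3p. It was at 54.4, 260 and 187 CPM in the 3 FVB/N hippocampi and at 66.8, 69.0 and 17.2 CPM in the 3 TgR hippocampi. In the PFC it was at 15.1, 44.8 and 36.5 CPM in FVB/N mice and at 14.1, 9.27, 25.1 and 6.38 CPM in TgR mice. Replicates 2 and 3 of the FVB/N hippocampus stood above all other libraries, while replicate 1 lay below 2 of the TgR hippocampi, so the genotypes overlapped in both regions. miR-200b-3p, the main carrier of the other seed, was at 24.7, 130 and 104 CPM in FVB/N and at 38.0, 39.5 and 8.83 CPM in TgR hippocampi. Its PFC levels were 9.84, 15.5 and 32.1 CPM in FVB/N and 11.3, 5.28, 15.0 and 5.98 CPM in TgR mice. miR-429-3p was at 8.17, 44.7 and 40.0 CPM in FVB/N and at 15.9, 19.6 and 2.72 CPM in TgR hippocampi, against 1.74 to 8.64 CPM in the 7 PFC libraries. High and low libraries were much the same for the 3 miRNAs in the hippocampus, with replicates 2 and 3 of the FVB/N hippocampus at the top and TgR hippocampus replicate 3 far below the other 2 of its group.

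The order of group means was the same for miR-200a-3p, miR-200b-3p and miR-429-3p, with FVB/N hippocampus first, then TgR hippocampus, FVB/N PFC and TgR PFC. For miR-200a-3p these means were 167 ± 104 (SD, n = 3), 51.0 ± 29.3 (SD, n = 3), 32.2 ± 15.3 (SD, n = 3) and 13.7 ± 8.21 CPM (SD, n = 4). For each of these 3 miRNAs, all neighbours in that order overlapped library by library and within 1 SD. miR-200a-5p kept the order but was set apart in the FVB/N hippocampus, at 1.57, 4.07 and 6.17 CPM (20, 64 and 80 counts), against 0.799, 1.03 and 0.278 CPM in the TgR hippocampus (14, 15 and 5 counts). In the 7 PFC libraries it had between 1 and 8 counts.

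**Figure D1:**
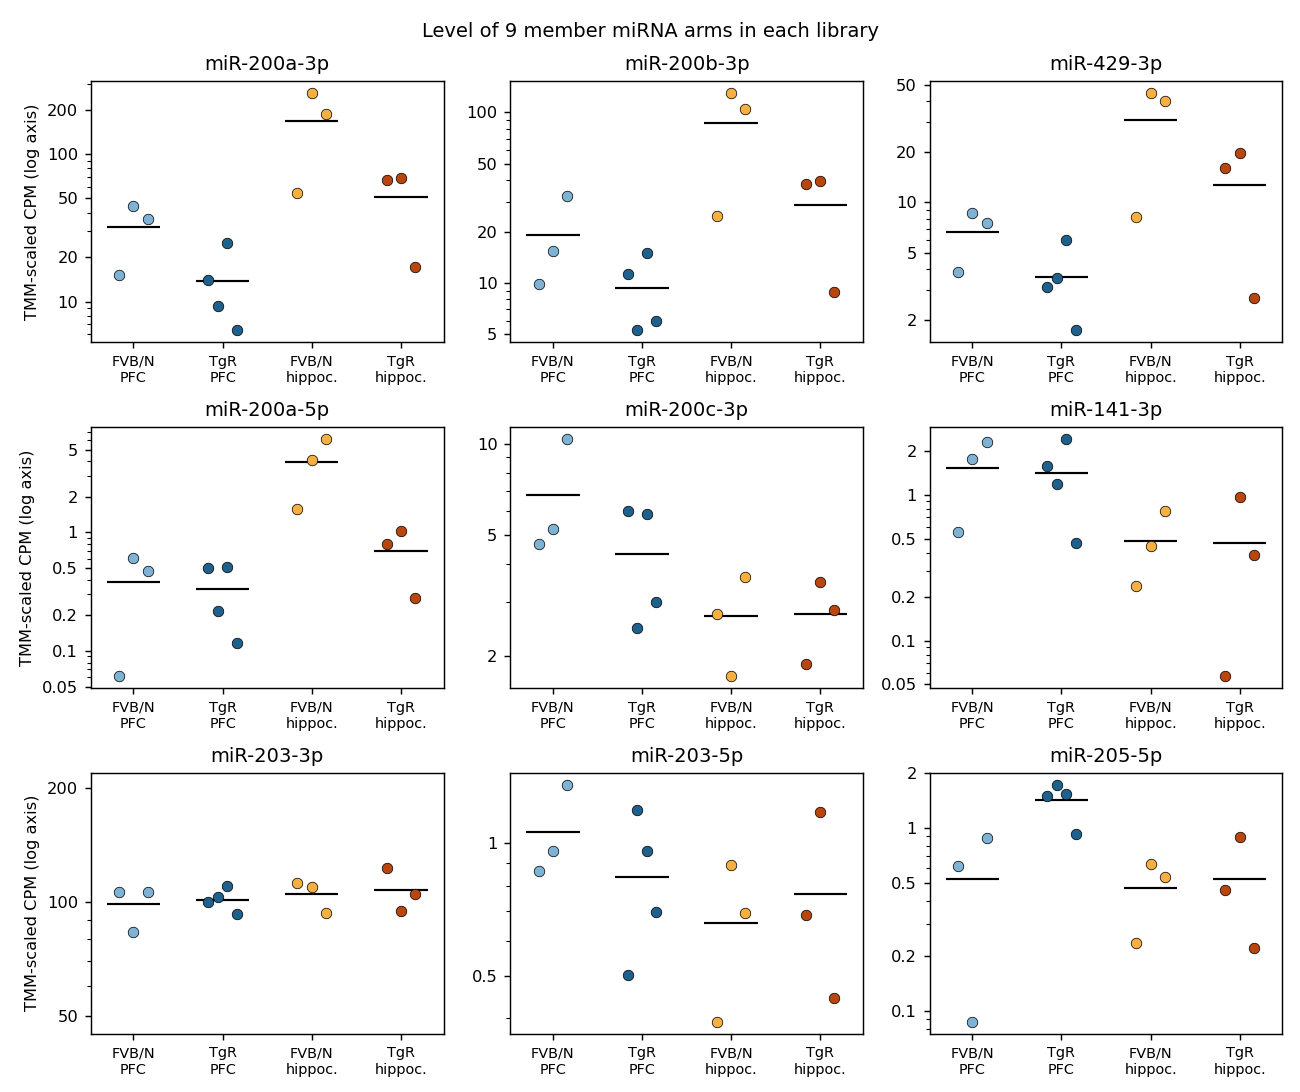
TMM-scaled CPM (log axis, with its own range in each panel) of 9 member arms in each of the 13 libraries by group, with points for libraries and lines for group means. The chromosome 4 members (miR-200a, miR-200b and miR-429) are highest on average in the FVB/N hippocampus. miR-200c-3p and miR-141-3p are higher on average in the PFC, and miR-203-3p lies between 83.4 and 123 CPM throughout.

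The chromosome 6 cluster had another pattern, with the higher group means in the PFC. miR-200c-3p, which carries the seed of miR-200b-3p, was at 4.68, 5.24 and 10.4 CPM in the FVB/N PFC and at 6.01, 2.48, 5.86 and 3.02 CPM in the TgR PFC. In the hippocampus it was at 2.75, 1.72 and 3.62 CPM in FVB/N and at 1.88, 3.51 and 2.83 CPM in TgR mice, so that FVB/N hippocampi lay below FVB/N PFC without overlap, while TgR libraries of both regions overlapped. miR-141-3p averaged 1.53 ± 0.894 (SD, n = 3) and 1.41 ± 0.815 CPM (SD, n = 4) in the FVB/N and TgR PFC, and 0.484 ± 0.270 and 0.470 ± 0.459 CPM (SD, n = 3 each) in the FVB/N and TgR hippocampus. Neighbouring groups overlapped for both miRNAs. The FVB/N hippocampus replicate 2, which was highest for miR-200a-3p, was lowest for miR-200c-3p.

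Summed over all arms of the 5 miR-200 hairpins, the family reached 292 ± 180 CPM in the FVB/N hippocampus (SD, n = 3), 96.6 ± 56.0 CPM in the TgR hippocampus (SD, n = 3), 66.9 ± 29.0 CPM in the FVB/N PFC (SD, n = 3) and 32.8 ± 16.9 CPM in the TgR PFC (SD, n = 4). By library the sum was 92.2, 442 and 342 CPM in FVB/N hippocampi, 124, 134 and 32.3 CPM in TgR hippocampi, 34.2, 76.7 and 89.6 CPM in the FVB/N PFC and 36.6, 22.0, 55.0 and 17.7 CPM in the TgR PFC. Every pair of groups that were neighbours in the order of means overlapped. FVB/N hippocampi lay above the FVB/N PFC without overlap, the nearest pair being 92.2 and 89.6 CPM. The FVB/N hippocampus mean lay between 217 and 392 CPM when 1 of its libraries was left out. In tissue, fewer cells that hold these miRNAs and less of them per cell cannot be told apart.

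The chromosome 4 cluster made up 98.3 ± 1.41% of the family's counts in the FVB/N hippocampus (SD, n = 3) and 95.0 ± 4.44% in the TgR hippocampus (SD, n = 3), against 87.2 ± 3.29% in the FVB/N PFC (SD, n = 3) and 82.0 ± 2.61% in the TgR PFC (SD, n = 4). As a ratio within each library, which does not depend on scaling, the chromosome 4 cluster exceeded the chromosome 6 cluster 29.9-, 198- and 76.8-fold in FVB/N hippocampi and 62.7-, 28.9- and 9.02-fold in TgR hippocampi. The ratio was 5.54, 9.99 and 6.07 in the FVB/N PFC and between 3.83 and 5.64 in the TgR PFC. Within each genotype all hippocampi exceeded all PFC libraries, whereas the genotypes overlapped in both regions, in the PFC through 1 TgR library at 5.64 above 1 FVB/N library at 5.54.

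**Figure D2:**
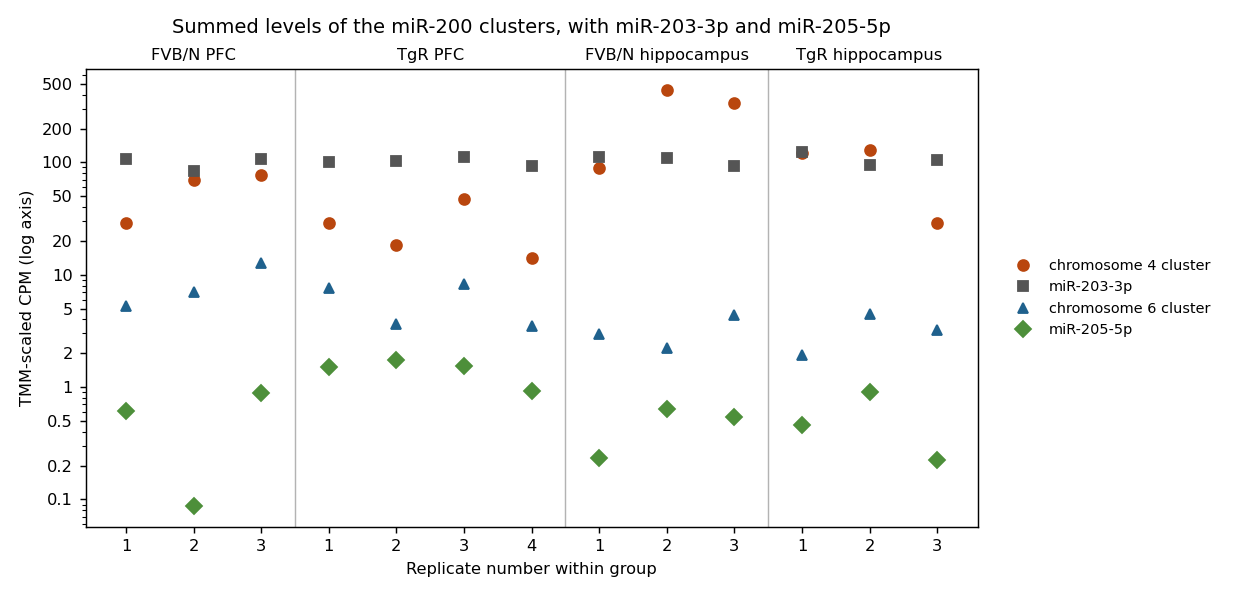
Summed TMM-scaled CPM (log axis) of the chromosome 4 cluster (mir-200a, mir-200b, mir-429) and the chromosome 6 cluster (mir-200c, mir-141), with miR-203-3p and miR-205-5p, as 1 symbol per library in the 4 groups. The chromosome 4 sum runs from 14.2 to 440 CPM and the chromosome 6 sum from 1.94 to 12.7 CPM.

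The ratios of the near-identical partners varied widely in the authors' counts. miR-200a-3p and miR-141-3p, which differ at 2 positions, stood at ratios between 7.82 (TgR PFC replicate 2) and 1170 (TgR hippocampus replicate 1, where miR-141-3p had 1 count). miR-200b-3p and miR-200c-3p stood at ratios between 1.89 and 75.7. Within the chromosome 4 cluster the ratios were narrower. miR-200a-3p exceeded miR-200b-3p by 1.75 ± 0.481 times (SD, n = 13) and miR-200b-3p exceeded miR-429-3p by 2.75 ± 0.768 times (SD, n = 13), over a range of 1.07 to 2.90 and of 1.48 to 4.23. Partial misassignment between near-identical arms remains possible and was not tested on reads.

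The 3p arm dominated in all hairpins of the family. The 5p arm took 1.87 ± 0.859% of the counts of mir-200a (SD, n = 13) and 0.724 ± 0.550% of those of mir-200b (SD, n = 13). For mir-200a the share was 2.52 ± 0.866% in the FVB/N hippocampus (SD, n = 3) and 1.42 ± 0.211% in the TgR hippocampus (SD, n = 3), and 1.01 ± 0.526% in the FVB/N PFC (SD, n = 3) and 2.37 ± 0.735% in the TgR PFC (SD, n = 4), with 15 counts of the 5p arm in all FVB/N PFC libraries together and 20 in the TgR PFC. For mir-203 the 5p arm took 0.809 ± 0.306% (SD, n = 13).

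miR-203-3p, the skin differentiation miRNA, was the steadiest member. Its means were 98.8 ± 13.3 CPM in the FVB/N PFC (SD, n = 3), 102 ± 7.24 CPM in the TgR PFC (SD, n = 4), 105 ± 10.1 CPM in the FVB/N hippocampus (SD, n = 3) and 108 ± 14.4 CPM in the TgR hippocampus (SD, n = 3). The highest library exceeded the lowest 1.48-fold, against 40.8-fold for miR-200a-3p, 24.6-fold for miR-200b-3p and 25.7-fold for miR-429-3p. By the SD of log2(CPM + 0.5) within groups, miR-429-3p, miR-200b-3p and miR-200a-3p ranked 3rd, 4th and 5th of 751 tested pairs (1.03, 1.00 and 0.98, against a median of 0.28), and miR-203-3p ranked 655th at 0.16. miR-203-3p had 955 to 2159 counts per library and miR-200a-3p had 86 to 4089.

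miR-205-5p, the basal layer miRNA, was near the floor, with 1 to 24 counts per library. It was at 0.615, 0.0873 and 0.881 CPM in the FVB/N PFC and at 1.50, 1.72, 1.53 and 0.928 CPM in the TgR PFC, so that the TgR libraries lay above the FVB/N libraries without overlap, the nearest pair being 0.881 and 0.928 CPM. In the hippocampus it was at 0.236, 0.636 and 0.540 CPM in FVB/N and at 0.457, 0.896 and 0.222 CPM in TgR mice. Only the TgR PFC, of the 4 groups, stood apart from its neighbour in the order of means.

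Genotypes were compared within each region to see which miRNAs differ in mice that overexpress AChE-R, with edgeR's quasi-likelihood test on the whole table and an adjusted p of 0.05 as the threshold. In the hippocampus the chromosome 4 members were lower on average in TgR mice, by log2 fold changes of -1.76 (SE 0.62) for miR-200a-3p, -1.64 (SE 0.66) for miR-200b-3p and -1.34 (SE 0.72) for miR-429-3p. miR-200a-5p was lower by a log2 fold change of -2.56 (SE 0.56), and its TgR libraries lay below the FVB/N libraries without overlap. The filter on low counts (minimum count 10) was met more clearly in the FVB/N hippocampus, with at least 20 counts per library, than in TgR mice, with 14, 15 and 5. The entry of this arm thus leaned on the group where it was high, and nothing is read from its difference. miR-200c-3p and miR-203-3p were at log2 fold changes of -0.02 (SE 0.32) and -0.01 (SE 0.16), though their mean CPM was slightly higher in TgR mice. Of 12 listed members, 7 were tested and 1 was called, against 3.44% of all 726 tested pairs, and 1 did not overlap between genotypes, against 23.1% of all pairs. The median log2 fold change was -1.34 over the tested members and -0.00 over all pairs, and nothing is read from these counts, since the members were chosen with these levels in view. With 1 library left out, 0 to 1 members and 1 to 28 pairs were called.

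In the PFC the 3p arms of the chromosome 4 cluster were again lower on average in TgR mice, by log2 fold changes of -1.21 (SE 0.50) for miR-200a-3p, -1.01 (SE 0.48) for miR-200b-3p and -0.88 (SE 0.43) for miR-429-3p. With 1 library left out, that of miR-200b-3p lay between -1.34 and -0.38. miR-200c-3p, near 0 in the hippocampus, was at -0.62 (SE 0.42) in the PFC. miR-205-5p was higher in TgR mice, at 1.35 (SE 0.51). Its entry too leaned on the group where it was high, with at least 16 counts per TgR library and 10, 1 and 13 in FVB/N libraries. Nothing is read from its difference. Of 8 tested members, edgeR called 0, against 0.137% of 730 pairs, with 2 members and 19 pairs at an unadjusted p under 0.05, and 0 members and 1 pair called by DESeq2. miR-205-5p was the 1 tested member without overlap, against 5.07% of all pairs. The 3p arms of the chromosome 4 cluster were thus lower on average in TgR mice in both regions, with genotypes that overlapped. The difference of the genotype effect between regions, tested over all 13 libraries, was called for 0 of 9 tested members by edgeR and by DESeq2. Of all 751 pairs, edgeR called 0.533%, with 1 member and 61 pairs at an unadjusted p under 0.05, and DESeq2 called 26 pairs. This difference amounted to -0.58 (SE 0.86) for miR-200a-3p and -2.55 (SE 1.03) for miR-200a-5p on the log2 scale. With 1 library left out, the values lay between -1.04 and -0.09 and between -2.96 and -1.91. The entry of miR-200a-5p through the filter leaned on the FVB/N hippocampus, where it was high, so nothing is read from its value.

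**Figure D3:**
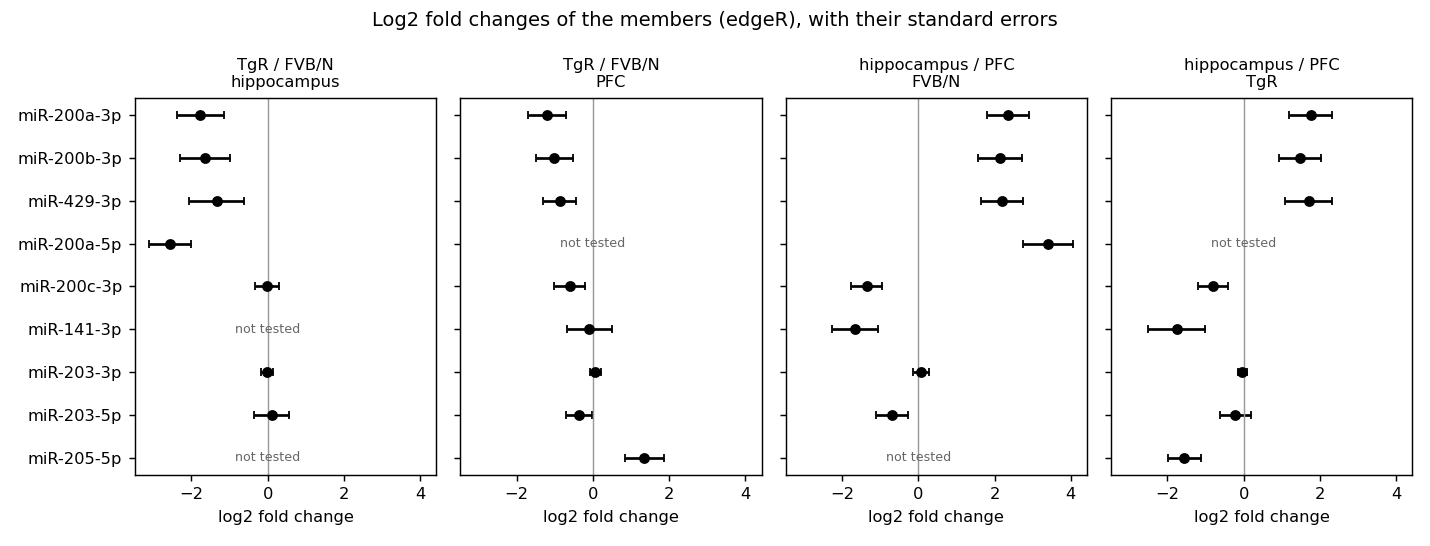
Log2 fold changes of 9 member arms (points) with their standard errors (bars) from edgeR fits of TgR against FVB/N in each region and of hippocampus against PFC in each genotype. miR-200a, miR-200b and miR-429 lie below 0 for genotype and above 0 for region, miR-200c-3p and miR-141-3p lie below 0 for region, and miR-203-3p lies near 0 in every comparison.

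Regions were compared within each genotype. In FVB/N mice the chromosome 4 members were higher on average in the hippocampus, with overlap between regions for miR-200b-3p and miR-429-3p. The log2 fold changes were 2.35 (SE 0.55) for miR-200a-3p, 2.20 (SE 0.56) for miR-429-3p, 2.15 (SE 0.59) for miR-200b-3p and 3.41 (SE 0.66) for miR-200a-5p. The value of miR-200b-3p lay between 1.73 and 2.80 with 1 library left out. miR-200a-5p entered only through the hippocampus, with at least 20 counts per library there and at most 7 in the PFC, so nothing is read from its difference. The chromosome 6 members were lower there on average, with overlap for miR-141-3p, by -1.35 (SE 0.40) for miR-200c-3p and -1.65 (SE 0.60) for miR-141-3p. miR-141-3p entered mainly through the PFC, with 9, 20 and 34 counts there and 3, 7 and 10 in the hippocampus. Nothing is read from its difference. Of 8 tested members, 2 were called higher in the hippocampus, against 2.09% of 718 pairs, and 0 lower, against 1.25%. At an unadjusted p under 0.05 there were 6 members and 109 of all pairs, and DESeq2 called 3 members and 36 pairs. Those without overlap were miR-200a-3p and miR-200a-5p, higher, against 14.8% of all pairs, and miR-200c-3p, lower, against 6.82%. With 1 library left out, 0 to 4 members and 4 to 51 pairs were called, and nothing is read from these counts either.

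In TgR mice the 3p arms of both clusters had the same signs as in FVB/N mice. On average the hippocampus was above the PFC, with overlapping libraries, by log2 fold changes of 1.76 (SE 0.56) for miR-200a-3p, 1.70 (SE 0.62) for miR-429-3p and 1.48 (SE 0.54) for miR-200b-3p. It was below the PFC on average by -0.81 (SE 0.39) for miR-200c-3p, -1.76 (SE 0.74) for miR-141-3p and -1.56 (SE 0.43) for miR-205-5p. miR-203-3p was at -0.03 (SE 0.13), though its mean CPM was slightly higher in the hippocampus. With 1 library left out, the values lay between -2.75 and -1.20 for miR-141-3p and between -2.17 and -1.20 for miR-205-5p. edgeR called 0 of 8 tested members, against 5.56% of 738 pairs called higher and 5.69% called lower in the hippocampus, with 5 members and 178 pairs at an unadjusted p under 0.05, and 4 members and 128 pairs called by DESeq2. miR-205-5p, lower in the hippocampus, did not overlap between regions, against 9.08% of all pairs in that direction. It entered mainly through the PFC, with at least 16 counts per library there and 8, 13 and 4 in the hippocampus, so nothing is read from its difference. miR-141-3p, with 25, 11, 38 and 8 counts in the PFC and 1, 14 and 7 in the hippocampus, also entered mainly through the PFC. Its regions overlapped, and nothing is read from its difference. Higher in the hippocampus without overlap were 0 members, against 19.4% of all pairs, and nothing is read from these counts.

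Outside the members, the 5 pairs of 742 whose log2(CPM + 0.5) was most alike to that of the summed miR-200 family over the 13 libraries were sought by Pearson's r. miR-182-5p had r = 0.82 (rho = 0.77) and miR-183-5p r = 0.79 (rho = 0.75). Both belong to the miR-183 cluster, which is known from sensory epithelia and photoreceptors. They were followed by miR-181d-5p (r = 0.79, rho = 0.70), miR-329-5p (r = 0.73, rho = 0.54) and miR-125b-2-3p (r = 0.72, rho = 0.66). On deviations from group means, r was 0.82 for miR-182-5p, 0.81 for miR-183-5p and 0.61 for miR-329-5p. It was lower for miR-181d-5p, at 0.45, and for miR-125b-2-3p, at 0.14, whose likeness lay mostly between groups. Without the 2 libraries farthest from the family's median, replicates 2 and 3 of the FVB/N hippocampus, r was between 0.24 and 0.55 for these 5 pairs, so the likeness rests in good part on these 2 libraries. For members, r with the sum was 0.99 for miR-200a-3p, 0.99 for miR-200b-3p and 0.98 for miR-429-3p, which make up most of that sum. It was -0.21 for miR-200c-3p and -0.15 for miR-141-3p, which are small parts of it, and 0.09 for miR-203-3p and -0.30 for miR-205-5p, which are not in it. These signs turned when deviations from group means were used. There, r was 0.30 for miR-200c-3p, 0.59 for miR-141-3p, -0.05 for miR-203-3p and 0.51 for miR-205-5p.

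Marker lists of other cell types were set beside these levels, each as the sum of its mature miRNAs. The neuronal list (miR-124, miR-9 and miR-128) summed to between 170982 and 254881 CPM, with miR-128-3p as its most abundant pair. Such sums fit brain as the tissue, and the labels of region were not checked by them. Other epithelial miRNAs (the miR-183 cluster, miR-31, miR-192, miR-194, miR-215 and miR-375) summed to 470, 623 and 506 CPM in FVB/N and 515, 531 and 517 CPM in TgR hippocampi, and to between 415 and 510 CPM in the PFC. Of the 10 tested pairs, 1 was called higher and 2 lower in TgR hippocampi, against 14 higher and 11 lower of all 726 tested pairs. The most abundant, miR-194-5p, stayed between 216 and 292 CPM in all libraries, and miR-182-3p, miR-183-3p, miR-192-3p, miR-194-1-3p and miR-215-3p were at 0 in some. miR-182-5p was called lower, from 27.6 ± 13.1 to 9.33 ± 1.68 CPM (SD, n = 3 each). So was miR-183-5p, at 15.3, 48.7 and 29.9 CPM in FVB/N and at 10.5, 10.6 and 8.88 CPM in TgR hippocampi. miR-375-3p, an endocrine and epithelial miRNA, was called higher, from 11.6 ± 2.71 to 39.4 ± 2.43 CPM (SD, n = 3 each).

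The list of choroid plexus and ciliated cells, the epithelium inside the ventricles, was higher in the hippocampus than in the PFC, like the chromosome 4 cluster, and higher in TgR than in FVB/N hippocampi. It summed to 1418, 1064 and 1015 CPM in FVB/N hippocampi and to 6410, 1734 and 5293 CPM in TgR hippocampi. Of 14 tested pairs, 7 were called higher and 0 lower in TgR mice, against 14 and 11 of all 726 pairs. In the PFC the list summed to between 641 and 942 CPM. Its most abundant pair, miR-204-5p, ranged from 434 to 3328 CPM, and of its 16 listed pairs only miR-449b and miR-449c-5p were at 0 in some library. TgR hippocampus replicate 3 was high for this list and low for the miR-200 family, while replicate 1 was high for the list and near replicate 2 for the family. The part of this tissue in the miR-200 levels was not tested.

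Red blood cell miRNAs (miR-144, miR-451a and miR-486) summed to 1383, 1407 and 1432 CPM in FVB/N and to 631, 783 and 878 CPM in TgR hippocampi, with 2 of 7 tested pairs called lower, and miR-451a was their most abundant pair. Muscle miRNAs (miR-1a, miR-133a and miR-206) summed to 243, 289 and 183 CPM in FVB/N and to 392, 432 and 463 CPM in TgR hippocampi, with 4 of 5 called higher and miR-1a-3p as the most abundant. Over all 726 tested pairs, 14 were called higher and 11 lower. The sums of both lists did not overlap between genotypes in the hippocampus, as was so for 23.1% of all single pairs. The part of both lists in the miR-200 levels was not tested. In FVB/N hippocampi the red blood cell sum lay between 1383 and 1432 CPM and the family sum between 92.2 and 442 CPM. Whether they are related was not tested. The other 5 lists were white blood cells, endothelial and mural cells, oligodendrocytes, neurons and Hox cluster miRNAs. In the hippocampus edgeR called 0 of their 34 tested pairs for genotype, with 7 at an unadjusted p under 0.05. In the PFC it called 0 of 70 pairs of all 9 lists, with 5. Over all pairs it called 3.44% in the hippocampus and 0.137% in the PFC, with 127 and 19 pairs at that unadjusted threshold.

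Between regions, oligodendrocyte miRNAs (miR-219a and miR-338) were called higher in the hippocampus for 2 of 6 tested pairs in FVB/N and 5 of 6 in TgR mice, in which the list summed to 1760 ± 357 (SD, n = 3) and 2335 ± 630 CPM (SD, n = 3), against 747 ± 127 (SD, n = 3) and 644 ± 61.9 CPM (SD, n = 4) in the PFC. miR-219a-2-3p was the most abundant of them. Choroid plexus and ciliated cell miRNAs were called higher for 2 of 14 in FVB/N and 8 of 14 in TgR mice. Over all tested pairs, 2.09% in FVB/N and 5.56% in TgR mice were called higher in the hippocampus. The sums of both lists were higher on average in the hippocampus in both genotypes, as were the 3p arms of the chromosome 4 cluster. Their part was not tested. In TgR mice, pairs were called lower in the hippocampus for 3 of 7 red blood cell, 1 of 6 white blood cell, 2 of 6 endothelial and mural and 2 of 15 neuronal miRNAs. The share called lower over all 738 tested pairs was 5.69%. White blood cell miRNAs (miR-142, miR-150 and miR-223) summed to between 380 and 643 CPM over all libraries, endothelial and mural miRNAs (miR-126, miR-143 and miR-145) to between 11113 and 19590 CPM, and the Hox cluster miRNAs of hindbrain and spinal cord to between 18.5 and 71.2 CPM. Their most abundant pairs were miR-150-5p, miR-126a-3p and miR-10a-5p. At 0 in some library were miR-126b-5p, miR-145b, miR-128-2-5p, miR-1a-1-5p and, of the Hox cluster miRNAs, miR-10a-3p, miR-10b-3p, miR-196a-5p, miR-196b-5p and miR-615-3p.

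**Figure D4:**
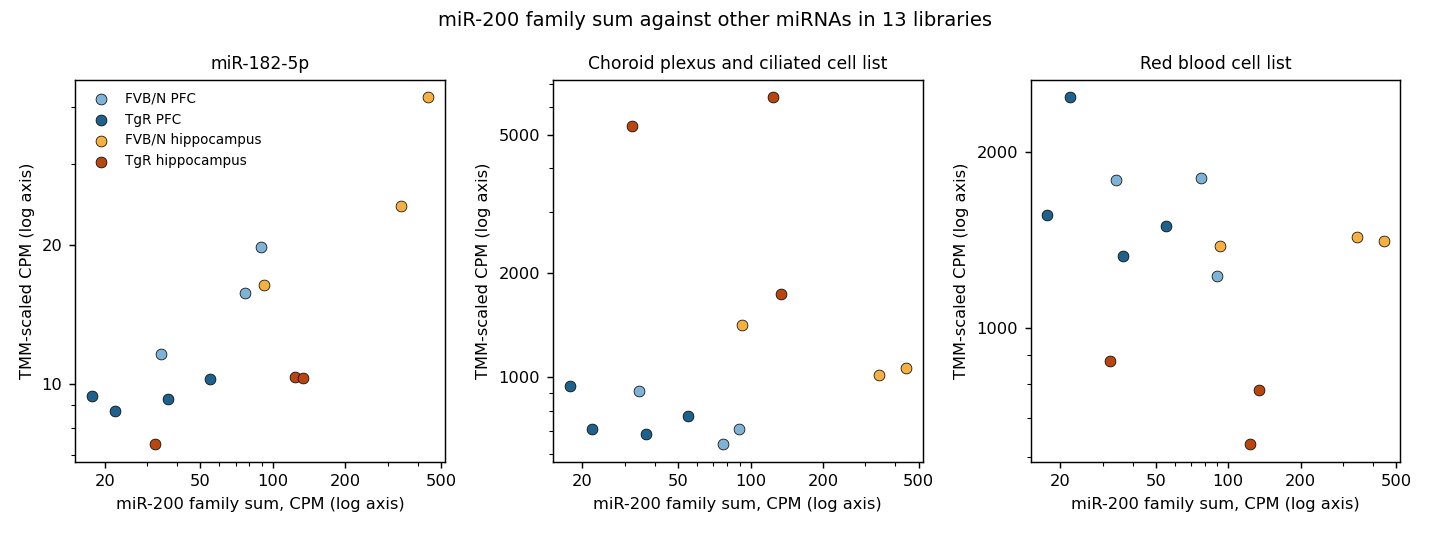
Summed miR-200 family (x axis, TMM-scaled CPM, log axis) against miR-182-5p, the choroid plexus and ciliated cell list and the red blood cell list (y axes, TMM-scaled CPM, log axes), with 1 point per library. The 2 FVB/N hippocampi with the highest family sums, 342 and 442 CPM, also have the highest miR-182-5p, while the choroid plexus list is highest in 2 TgR hippocampi.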

How the data were processed

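The counts are those deposited by the authors, who checked reads with FastQC and counted them with miRExpress 2.0 against miRBase 21. Each pair of hairpin and mature miRNA was taken as deposited. The tests used edgeR 4.0.16 in R 4.3.3, with TMM factors, the low-count filter filterByExpr (minimum count 10), quasi-likelihood tests and Benjamini-Hochberg adjustment over all tested pairs, and an adjusted p under 0.05 as the threshold. The code was tested on simulated data. Alternatives were DESeq2 1.42.0, other scaling, no filter, 1 entry per mature miRNA, all libraries in a single fit, a replicate block and each library left out. Levels are CPM with TMM factors over the 13 libraries, and logarithms of them used a pseudocount of 0.5. Sums, ratios and correlations were computed in Python 3.11.15 with pandas 2.3.3 and SciPy 1.17.1. The named genes were all listed arms of the 7 hairpins, the 5 pairs most alike to the miR-200 sum, and the marker lists, whose names without a letter suffix also match lettered hairpins. Members and lists were chosen with earlier results of these data known. Sequences are from RefSeq and loci from GENCODE M21 on GRCm38.p6.

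Groups of 3 or 4 mice are small, and 2 FVB/N hippocampi carry much of what was seen for the chromosome 4 cluster. Counts of miR-200a-5p, miR-141-3p and miR-205-5p are low. Where a member passed the low-count filter only or mainly through the group where it was high, its entry favoured a difference, and nothing is read from that difference. Whole tissue was sequenced, and neither dissection nor cell content was measured. The reads were not counted again, so assignment between near-identical arms rests on the deposited counts. Only short RNA was measured, so that transcription of the clusters and repression of their targets were not seen.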

Additional observations from a re-analysis of the deposited data

Results flagged for a closer look

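In the TgR PFC, the group with 4 libraries, 4 of 24 tested sets of values held a library far from the other 3 by Dixon's test. Chance alone flags about 1 in 20 groups, but this rate does not apply to 2 of the 4, in which the other 3 libraries were at 0 and any count would have stood apart. These were miR-200b-5p, highest in TgR PFC replicate 3 at 0.191 CPM, which is 3 counts, and miR-205-3p in the same library at 0.0637 CPM, which is 1 count. The summed oligodendrocyte list was highest in TgR PFC replicate 4 at 736 CPM, and the summed muscle list in the same library at 1214 CPM. The cause was not tested.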

How the results depend on the processing

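For genotype in the hippocampus, edgeR called 25 pairs and 1 member. DESeq2 called 52 pairs and 1 member, and without the low-count filter edgeR called 63 pairs and 4 members. Leaving out 1 library gave 1 to 28 pairs and 0 to 1 members. For genotype in the PFC, 1 pair and 0 members were called, and leaving out 1 library gave 1 to 1 pairs and 0 to 0 members.

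For region in FVB/N mice, 24 pairs and 2 members were called. Without the filter there were 56 pairs and 6 members, and with all 13 libraries in a single fit 40 pairs and 1 member. Leaving out 1 library gave 4 to 51 pairs and 0 to 4 members.

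For region in TgR mice, 83 pairs and 0 members were called. DESeq2 called 128 pairs and 4 members. DESeq2 size factors inside edgeR gave 1 member and 97 pairs, no filter 1 member and 94 pairs, and 1 entry per mature miRNA 1 member and 86 pairs. Leaving out 1 library gave 45 to 128 pairs and 0 to 3 members.

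For the difference of the genotype effect between regions, 4 pairs and 0 members were called, against 26 pairs by DESeq2 and 13 pairs without the filter, with 0 members in either. Leaving out 1 library gave 2 to 8 pairs and 0 to 0 members.

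With the replicate number as a block, 9 pairs and 0 members were called for genotype in the hippocampus, 25 pairs and 5 members for region in FVB/N mice and 54 pairs and 0 members for region in TgR mice. In the pairing check, libraries with the same number correlated between -0.11 and 0.17 for genotype in the hippocampus, -0.30 and 0.46 for genotype in the PFC, 0.04 and 0.19 for region in FVB/N mice and -0.16 and 0.46 for region in TgR mice. Replicate numbers were those of the sample titles. The deposited files number the FVB/N PFC libraries otherwise, and the block and the pairing check were not repeated with those numbers.

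Leaving out 1 library, the family sum averaged 55.5 to 83.2 CPM in the FVB/N PFC, 25.4 to 37.9 CPM in the TgR PFC, 217 to 392 CPM in the FVB/N hippocampus and 78.0 to 129 CPM in the TgR hippocampus.

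Log2 fold changes ranged, with 1 library left out, from -2.23 to -1.36 for miR-200a-3p, -2.13 to -1.21 for miR-200b-3p, -1.84 to -0.87 for miR-429-3p and -2.99 to -2.11 for miR-200a-5p for genotype in the hippocampus. For genotype in the PFC they ranged from -1.70 to -0.91 for miR-200a-3p, -1.34 to -0.38 for miR-200b-3p, -1.27 to -0.64 for miR-429-3p, -0.83 to -0.13 for miR-200c-3p and 0.92 to 1.89 for miR-205-5p. For region in FVB/N mice they ranged from 1.90 to 2.78 for miR-200a-3p, 1.73 to 2.80 for miR-200b-3p, 1.84 to 2.65 for miR-429-3p, 2.83 to 3.86 for miR-200a-5p, -1.67 to -0.85 for miR-200c-3p and -2.16 to -1.13 for miR-141-3p, and in TgR mice from 1.46 to 2.25 for miR-200a-3p, 1.15 to 1.89 for miR-200b-3p, 1.22 to 2.17 for miR-429-3p, -1.05 to -0.58 for miR-200c-3p, -2.75 to -1.20 for miR-141-3p and -2.17 to -1.20 for miR-205-5p.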
